A study of Mus musculus with 10 samples.

Results

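Hepcidin, the liver hormone that limits iron entry into plasma, and 9 other genes of its control and of iron handling were followed in primary mouse hepatocytes after knockdown of a histone acetyltransferase, KAT2B, or of WDR5, which holds together complexes that methylate histones. The genes are Hamp (hepcidin), the BMP targets Id1, Id2, Id3, Smad6 and Smad7, and the iron genes Tfr2, Tfrc, Hfe and Slc40a1. They are 10 of the 16401 genes that the array annotation covers with probe sets of a single gene symbol, and all 10 stayed among the 11480 genes tested after the lowest 30 percent by mean intensity were left out. Each had 1 such probe set. Hamp was chosen by its low level in the shKAT2B libraries of this same series, so its shKAT2B values are given as a description without a test.

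Hepatocytes of male C57BL6/J mice aged 10 weeks were infected with adenovirus at 2 to 4 plaque-forming units per cell and kept for 72 hours. In the shKAT2B arm the virus carried a hairpin against Kat2b, in the shWDR5 arm a hairpin against Wdr5, and in the shNS arm a non-specific hairpin, so every library comes from infected cells. Each arm was then given 100 nM glucagon, a pancreatic hormone of fasting that acts on hepatocytes through cyclic AMP, or phosphate-buffered saline (PBS) for 90 minutes. The shKAT2B glucagon, shWDR5 glucagon, shNS glucagon and shNS PBS groups have 2 libraries (A and B), the shKAT2B PBS and shWDR5 PBS groups have 1, and each library pooled RNA of 3 culture dishes. The labels name a single hairpin per target, so effects of a knockdown and other effects of its hairpin cannot be told apart.

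Hepatocytes make hepcidin in response to iron. BMP6 and BMP2 from sinusoidal endothelial cells bind BMP receptors and the co-receptor hemojuvelin on the hepatocyte, the receptors phosphorylate SMAD1, SMAD5 and SMAD8 (gene Smad9), and these enter the nucleus with SMAD4 and bind the Hamp promoter. The same complex drives Id1, Smad6, Smad7 and Atoh8, where SMAD6 and SMAD7 feed back to inhibit the pathway. Transferrin receptor 2 and HFE report circulating iron to this pathway, interleukin 6 acts on the promoter through STAT3, and hepcidin causes the iron exporter ferroportin (Slc40a1) to be degraded at the protein level.

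Sequence motifs of the BMP and STAT3 inputs were searched for in the promoter. RefSeq promoter windows (build GRCm38.p6, 250 bases before to 50 bases after the gene start) were found for 7 of the 10 genes. Id1, Smad7 and Slc40a1 had no window and were not searched. The windows of Hamp, chr7:30943980-30944279 on the minus strand, and of its neighbouring paralogue Hamp2, chr7:30924132-30924431 on the minus strand, are shown because the copies differ within the BMP motif. Capitals mark the BMP response element core GGCGCC and the STAT motif TTCNNNGAA of Hamp and the bases aligned with them in Hamp2.
Hamp: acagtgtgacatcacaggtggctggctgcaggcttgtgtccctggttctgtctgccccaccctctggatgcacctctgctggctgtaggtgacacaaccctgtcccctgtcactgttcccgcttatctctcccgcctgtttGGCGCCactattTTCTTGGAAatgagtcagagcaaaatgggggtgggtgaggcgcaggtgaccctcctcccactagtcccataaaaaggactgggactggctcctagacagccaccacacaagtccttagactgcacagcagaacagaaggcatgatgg
Hamp2: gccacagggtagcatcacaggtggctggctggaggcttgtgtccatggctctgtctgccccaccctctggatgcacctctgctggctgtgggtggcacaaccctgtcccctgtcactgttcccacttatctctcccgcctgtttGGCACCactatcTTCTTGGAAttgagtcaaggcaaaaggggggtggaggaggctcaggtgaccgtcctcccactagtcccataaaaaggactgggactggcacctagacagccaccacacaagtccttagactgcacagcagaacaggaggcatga

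The windows were identical at 276 of 297 aligned positions (92.9 percent). Counted from the first base of the hexamer, Hamp2 carried the substitution G4A relative to Hamp, and the STAT stretch was the same in both. The hexamer began 109 bases before the Hamp start and the STAT motif 97 bases before it. Searched on both strands, GGCGCC was present in 11.9 percent of 32851 mouse promoter windows of this length and TTCNNNGAA in 8.3 percent. Among the other genes with a window, GGCGCC was found in those of Id2 and Tfrc, and the STAT motif in none. The cyclic AMP response element TGACGTCA was in no window of these genes (1.79 percent of all windows), while its shorter core TGACG was in those of Id3, Tfr2 and Tfrc (20.8 percent of all windows). Tfr2 and Tfrc have more than 1 window, and TGACG in Tfr2 and GGCGCC in Tfrc were each in only 1 of them. The matches describe letters in these windows and do not show that a factor bound there.

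Beyond arm and treatment, the libraries fell into 2 sets. In the residuals of an additive model of arm and treatment, the first principal component carried 78 percent of the variance and set 4 libraries, called batch 1 here (shKAT2B glucagon A, shWDR5 glucagon A, shNS glucagon A and shNS PBS A), apart from the other 6, called batch 2, which hold 1 library of each group. With a batch term, which takes 1 shift for all arms, Hamp was higher in batch 2 by 0.72 on the log2 scale. That was beyond 98.1 percent of all genes in absolute size, whereas the median absolute shift was 0.15. The arms were unlike in this. From batch 1 to batch 2, log2 Hamp went from 10.46 to 12.00 in shNS PBS and from 10.66 to 11.81 in shNS glucagon. It went only from 10.41 to 10.57 in shWDR5 glucagon and from 8.39 to 8.59 in shKAT2B glucagon. Summed markers of Kupffer cells and leukocytes (11 of 12 on the array) ran from 7434 to 11013 in batch 2 and from 4726 to 6132 in batch 1, endothelial markers (12 of 12) from 5407 to 7204 and from 3973 to 4501, and stellate cell and fibroblast markers (10 of 10) from 5605 to 6428 and from 8345 to 8714. Values are therefore also given within batches. The hairpins acted on their targets: Kat2b was lower in shKAT2B than in shNS libraries by a log2 difference of -2.70 ± 0.09 (adjusted p = 2.76e-06, limma) and Wdr5 lower in shWDR5 libraries by -1.74 ± 0.07 (adjusted p = 1.34e-05). Here and below ± is the standard error of the fit.

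Hamp was low in every shKAT2B library. Its intensity was 335 and 385 in shKAT2B glucagon and 261 in shKAT2B PBS, against 1618 and 3591 in shNS glucagon and 1409 and 4096 in shNS PBS. The shWDR5 libraries had 1361 and 1520.2 with glucagon and 2077 in PBS. The lower shNS values, 1618 and 1409, are of batch 1, as is the shWDR5 library at 1361. Within batches the log2 difference of shWDR5 from shNS was -0.25 in batch 1 under glucagon. In batch 2 it was -1.24 under glucagon and -0.98 in PBS. The highest shKAT2B library was below the lowest library of either other arm, and the shNS libraries spread over more of the scale than those of any other arm, with the batch 2 libraries higher.

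**Figure D1:**
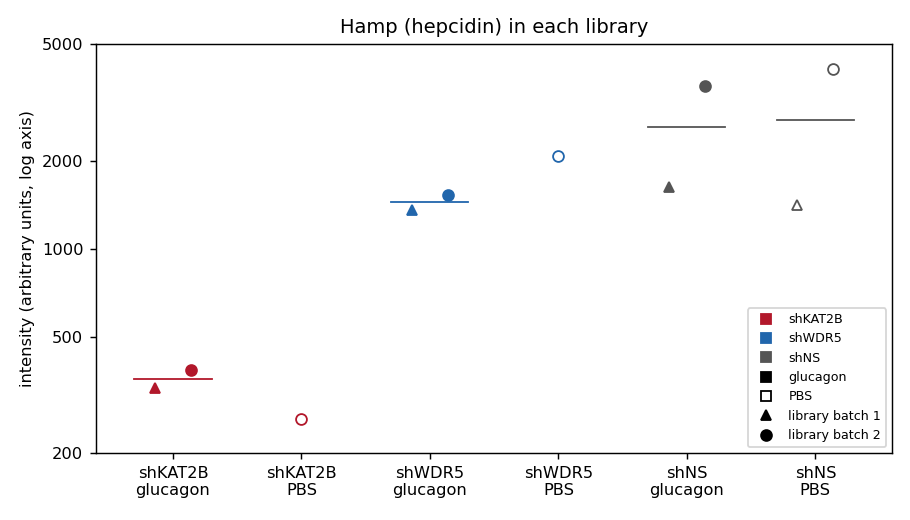
Intensity of the Hamp probe set in each of the 10 libraries on a log axis, by group, with horizontal lines at the means of groups with 2 libraries. The 3 shKAT2B libraries lie between 261 and 385, and the other 7 between 1361 and 4096.

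Relative to shNS, the log2 difference of Hamp in shKAT2B was -2.89 ± 0.38, a 7.41-fold lower level (3 against 4 libraries). Within batch 1 it was -2.27 under glucagon, and within batch 2 it was -3.22 under glucagon and -3.97 in PBS. Against shWDR5 it was -2.33 ± 0.41, or 5.02-fold lower. Over all other settings tried, the difference from shNS stayed between -3.59 and -2.63. Summed hepatocyte markers (8 of 10 on the array) moved with it, at 25256 to 26753 in shKAT2B, 27078 to 30129 in shWDR5 and 30094 to 35131 in shNS libraries, and of the 6 tested 3 were lower in shKAT2B with a list median of -0.54. Albumin stayed at 10590 or above in every library, whereas the hepatocyte markers Cyp2e1 (97.68 to 125.4) and Cps1 (107.6 to 306.6) were near the low end of the scale in all 10. Kupffer cell and leukocyte markers summed to more in shKAT2B than in shNS within each batch and treatment, at 5563 against 4726 (batch 1, glucagon), 11013 against 8221 (batch 2, glucagon) and 10210.0 against 7434 (batch 2, PBS), and in shWDR5 libraries to 6132, 9198 and 9104. Endothelial markers did so too, at 4143 against 4005, 7204 against 5936 and 6907 against 5407, with 4501, 6542 and 6393 in shWDR5 libraries. So did stellate cell and fibroblast markers, at 8714 against 8363, 6428 against 5933 and 6321 against 5605, with 8493, 6082 and 6094 in shWDR5 libraries. With the batch term 41.5 percent of all genes passed in either direction. In that fit 6 of 10 Kupffer cell and leukocyte, 6 of 12 endothelial and 5 of 8 stellate cell and fibroblast markers were higher in shKAT2B than in shNS. Of the hepatocyte markers 6 of 6 were lower. Without the batch term, where 15.6 percent of all genes passed, the markers other than those of hepatocytes did not (0 of 10, 0 of 12 and 0 of 8). The part of these shifts in the Hamp result was not tested, and fewer cells of a type and less RNA per cell cannot be told apart in such samples.

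Hamp2, named here after its values were seen, gave 139 and 155 in shKAT2B glucagon and 163 in shKAT2B PBS, against 170.1 and 269 in shNS glucagon and 170.1 and 276 in shNS PBS. The shKAT2B libraries were again the lowest, within batches by -0.29 and -0.79 under glucagon and -0.76 in PBS. Their Hamp2 values lie close to 140, the mean intensity at the filter on low genes, so they are near the low end of the genes tested. Over all libraries the difference was -0.46 ± 0.21 and did not pass (adjusted p = 0.178). Whether its probe set also reads Hamp was not tested. In shWDR5 it had 186 and 190.0 with glucagon and 282 in PBS.

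The comparison with the other BMP targets asks whether the pathway's other outputs were lower alongside hepcidin. Of the 9 other genes, 3 passed the threshold (limma, adjusted p below 0.05 over all genes tested) between shKAT2B and shNS: Id1 and Id2 were lower and Slc40a1 higher. Over all genes tested, 15.6 percent passed in this comparison, 764 higher and 1028 lower. The genes were drawn up with this contrast known, so nothing is read from their count. With the replicate letter as a block, or with the library batch as a term, 5 of 9 passed, with Id3 and Tfr2 added on the lower side. The share over all genes was then also larger, at 29.6 percent with the block and 41.5 percent with the batch term.

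Id1 encodes an inhibitor of helix-loop-helix transcription factors and is a widely used readout of BMP signalling in liver. Its intensity was 367 and 488 in shKAT2B glucagon and 560.3 in shKAT2B PBS, against 556 and 592 in shNS glucagon and 639 and 809 in shNS PBS. Within each treatment every shKAT2B library was below every shNS library. The log2 difference was -0.40 ± 0.11 (adjusted p = 0.0422), and -0.60, -0.28 and -0.53 within batch 1 under glucagon, batch 2 under glucagon and batch 2 in PBS. The call ended on leaving out any 1 of 8 libraries, that is, all but shNS PBS A and shKAT2B glucagon B, and was furthest from the threshold with shKAT2B PBS A dropped (adjusted p = 0.164).

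Id2, of the same family, had 6208 and 5833 in shKAT2B glucagon and 5293 in shKAT2B PBS, against 7434 and 6517 in shNS glucagon and 6339 and 5997 in shNS PBS. The groups did not overlap within a treatment, and the difference was small, at -0.21 ± 0.06 (adjusted p = 0.0295). It ended without any 1 of 6 libraries (shKAT2B glucagon B, shKAT2B PBS A, shWDR5 PBS A, shNS glucagon A, shNS PBS A or shNS PBS B), and dropping shKAT2B PBS A moved it furthest (adjusted p = 0.153).

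Id3 did not pass, at -0.31 ± 0.10 (adjusted p = 0.075). It had 949 and 1136 in shKAT2B glucagon and 471 in shKAT2B PBS, against 1479 and 1418 in shNS glucagon and 488 and 498 in shNS PBS. Most of the gap lay under glucagon, where within batches it was -0.64 and -0.32, against -0.08 in PBS. With the batch as a term Id3 passed, at -0.32 ± 0.09 (adjusted p = 0.00854).

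The inhibitory SMADs, the feedback arm of the pathway, gave differences near 0. Smad6 had 294 and 246 in shKAT2B glucagon and 197 in shKAT2B PBS, against 292 and 232 in shNS glucagon and 204 and 185 in shNS PBS. Its difference was 0.05 ± 0.11, with a 95% interval of -0.20 to 0.29 (adjusted p = 0.823). Smad7 had 724 and 519 in shKAT2B glucagon and 626 in shKAT2B PBS, against 685 and 471 in shNS glucagon and 838 and 584 in shNS PBS. Its difference was 0.00 ± 0.19, with an interval of -0.43 to 0.42 (adjusted p = 0.991). Between the batches Smad7 differed by -0.47 (batch 2 minus batch 1). Within batches Smad7 was at 0.08, 0.14 and 0.10 in shKAT2B relative to shNS.

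**Figure D2:**
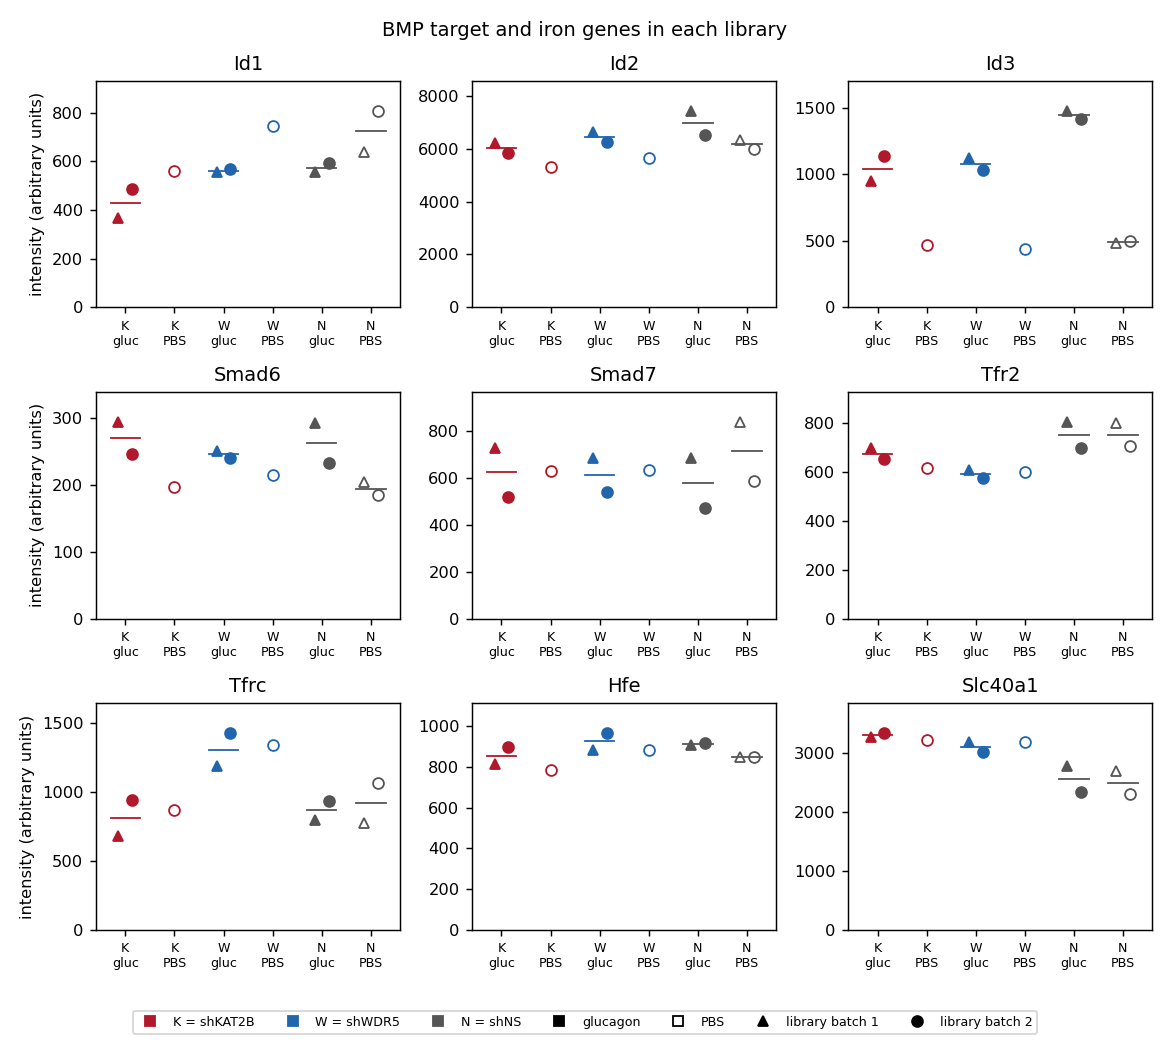
Intensity of the 9 other genes in each library (arbitrary units, axes from 0), with shKAT2B (K), shWDR5 (W) and shNS (N) side by side, filled symbols for glucagon, open symbols for PBS, and lines at the means of groups with 2 libraries. Id3 separates glucagon from PBS in each arm, Tfrc is highest in the shWDR5 libraries, and Slc40a1 is lowest in the shNS libraries.

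Among the iron genes, Slc40a1, which encodes ferroportin, was higher in both knockdown arms. It had 3281 and 3350.1 in shKAT2B glucagon and 3236 in shKAT2B PBS, and 3191 and 3019 in shWDR5 glucagon and 3191 in shWDR5 PBS. The shNS libraries had 2778 and 2336 with glucagon and 2702 and 2304 in PBS, so no knockdown library overlapped them. The difference from shNS was 0.38 ± 0.08 in shKAT2B (adjusted p = 0.01) and 0.31 ± 0.08 in shWDR5 (adjusted p = 0.0329), and these comparisons share the shNS libraries. The shKAT2B call ended only without shKAT2B PBS A (adjusted p = 0.0662). The shWDR5 call ended without any 1 of 7 libraries, all but shNS PBS A, shNS glucagon A and shKAT2B glucagon A, up to 0.188 without shWDR5 PBS A. Between shKAT2B and shWDR5 it differed by 0.07 ± 0.08 (interval -0.11 to 0.25, adjusted p = 0.591).

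Tfrc, the transferrin receptor for iron uptake, whose mRNA is stabilised by iron regulatory proteins when cell iron is low, was higher in the shWDR5 arm. Its intensity was 1184 and 1428 in shWDR5 glucagon and 1342 in shWDR5 PBS, against 798 and 936 in shNS glucagon and 771 and 1067 in shNS PBS. The groups did not overlap, and the difference was 0.58 ± 0.15 (adjusted p = 0.0362). The call ended without any 1 of 7 libraries, all but shNS PBS B and the 2 shKAT2B glucagon libraries, up to 0.156 without shWDR5 PBS A. In shKAT2B, Tfrc had 680.3 and 942 with glucagon and 867 in PBS, a difference from shNS of -0.09 ± 0.15 (adjusted p = 0.73).

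Tfr2, the liver's second transferrin receptor, had 605 and 572 in shWDR5 glucagon and 596 in shWDR5 PBS, against 803 and 695 in shNS glucagon and 798 and 704 in shNS PBS. It was lower in shWDR5 by -0.35 ± 0.08 (adjusted p = 0.029), with no overlap. That call ended without any 1 of 6 libraries (each of the 3 shWDR5 libraries, shKAT2B PBS A, shNS glucagon A or shNS PBS A), up to 0.119 without shWDR5 PBS A. In shKAT2B, Tfr2 had 695 and 653 with glucagon and 613 in PBS, at -0.20 ± 0.08 from shNS (adjusted p = 0.138). It passed with the replicate block (-0.23, adjusted p = 0.0301) and with the batch term (-0.17, adjusted p = 0.0228).

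Hfe, the gene mutated in the common form of hereditary haemochromatosis, varied least of the iron genes. It had 815 and 898 in shKAT2B glucagon and 787 in shKAT2B PBS, 885 and 969 in shWDR5 glucagon and 885 in shWDR5 PBS, and 910.2 and 917 in shNS glucagon and 849 in both shNS PBS libraries. Its difference from shNS was -0.10 ± 0.06 in shKAT2B (adjusted p = 0.35) and 0.03 ± 0.06 in shWDR5 (adjusted p = 0.792).

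In shWDR5 against shNS, 3 of 10 genes passed (Tfr2, Tfrc and Slc40a1), and 10.9 percent of all genes did. With the replicate block 5 passed, with Id2 and Id3 added on the lower side, and with the batch term 6, with Hamp added too, while the share over all genes was 26.7 percent and 36.8 percent. Hamp itself differed by -0.56 ± 0.38 in this comparison (interval -1.43 to 0.30, adjusted p = 0.406). With the batch term it was at -0.72 (adjusted p = 0.0302) and on batch 2 alone at -1.11 (adjusted p = 0.000872). Within batches it was at -0.25 and -1.24 under glucagon and -0.98 in PBS, lower in each. The shNS libraries here are those of the contrast by which Hamp was chosen. The p-values of Hamp and its place in these counts are therefore not independent of that choice, and nothing is read from them. Id1 differed by 0.00 ± 0.11 (interval -0.25 to 0.26, adjusted p = 0.988).

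Set directly against shWDR5, shKAT2B libraries had lower Id1 (-0.41 ± 0.12, adjusted p = 0.0388) and lower Tfrc (-0.68 ± 0.15, adjusted p = 0.0134). These were 2 of 9 genes, Hamp left out, where 22.7 percent of all genes passed. With the batch term 3 of 9 did, with Id2 added (-0.09, adjusted p = 0.0436), where 50.4 percent of all genes passed. Id1 was lower within each batch and treatment, by -0.60 and -0.22 under glucagon and -0.41 in PBS, and Tfrc by -0.80, -0.60 and -0.63. The Id1 call ended without any 1 of 6 libraries (each shWDR5 library, shKAT2B PBS A, shKAT2B glucagon A or shNS glucagon A), up to 0.137 without shWDR5 PBS A. The Tfrc call ended without shWDR5 PBS A (0.0545), shWDR5 glucagon B (0.055) or shKAT2B PBS A (0.0505).

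**Figure D3:**
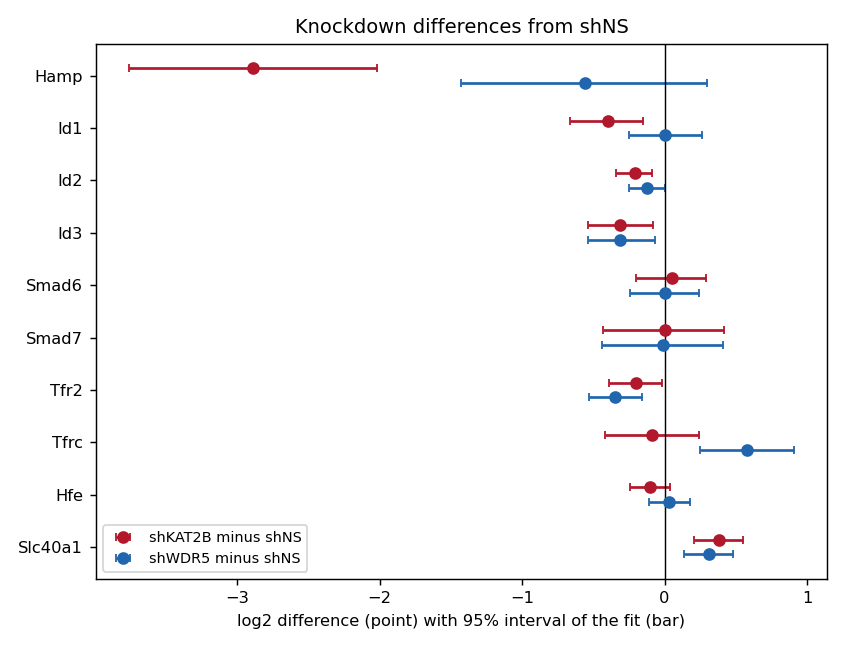
Log2 differences of the 10 genes between shKAT2B and shNS and between shWDR5 and shNS, with 95% intervals from the fit over all 10 libraries. Hamp in shKAT2B stands at -2.89, while every other point lies between -0.56 and 0.58.

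Among these genes Id3 rose under glucagon. It had 949 and 1136 in shKAT2B glucagon against 471 in shKAT2B PBS, 1121 and 1031 in shWDR5 glucagon against 443 in shWDR5 PBS, and 1479 and 1418 in shNS glucagon against 488 and 498 in shNS PBS. No glucagon library overlapped any PBS library, and the difference over the arms was 1.36 ± 0.09, a 2.56-fold higher level (6 against 4 libraries, adjusted p = 0.000121). The call held whichever library was left out, with an adjusted p of up to 0.00148. Within batches Id3 was 2.41-fold higher in shKAT2B, 2.33-fold in shWDR5, and 3.03-fold and 2.85-fold in shNS. In shNS alone the difference was 1.55 ± 0.12 (adjusted p = 0.00413). With shNS glucagon A, shNS glucagon B or shNS PBS B dropped, it no longer passed there.

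Id3 was the 1 of 10 genes that passed for glucagon over the arms and the 1 of 10 within shNS, where 0.923 percent and 0.192 percent of all genes did. With the replicate block 4 of 10 passed over the arms, with the batch term 5 and on batch 2 alone 3, where 2.5 percent, 3.35 percent and 2.69 percent of all genes did. The additions with the batch term were Id1 (-0.31, adjusted p = 0.0108) and Smad7 (-0.29, adjusted p = 0.0025), which were lower, and Id2 (0.15, adjusted p = 0.00993) and Smad6 (0.32, adjusted p = 0.0215), which were higher. In the fit without the batch these 4 stood at -0.37 ± 0.10, -0.15 ± 0.16, 0.18 ± 0.05 and 0.37 ± 0.09 and did not pass (adjusted p = 0.228, 0.962, 0.214 and 0.193). Within batches the 4 differences of Smad7 ran from -0.31 to -0.23 and those of Smad6 from 0.17 to 0.52. The Id genes thus did not share a direction under glucagon: Id1 was lower in glucagon than in PBS in each of the 4 pairs of libraries, by -0.45 to -0.20, while Id3 was higher by 1.22 to 1.60.

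Hamp differed between glucagon and PBS by -0.02 ± 0.33 (interval -0.75 to 0.72, adjusted p = 0.993), and the 4 pairs of libraries pointed both ways, with 0.56 in shKAT2B, -0.45 in shWDR5 and 0.20 and -0.19 in shNS. Tfr2, Tfrc, Hfe and Slc40a1 stood at 0.03 ± 0.07, -0.08 ± 0.12, 0.10 ± 0.05 and 0.01 ± 0.06 (adjusted p = 0.962, 0.962, 0.962 and 0.981). A change within 90 minutes at this dose was therefore not detected for Hamp or the iron genes.

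**Figure D4:**
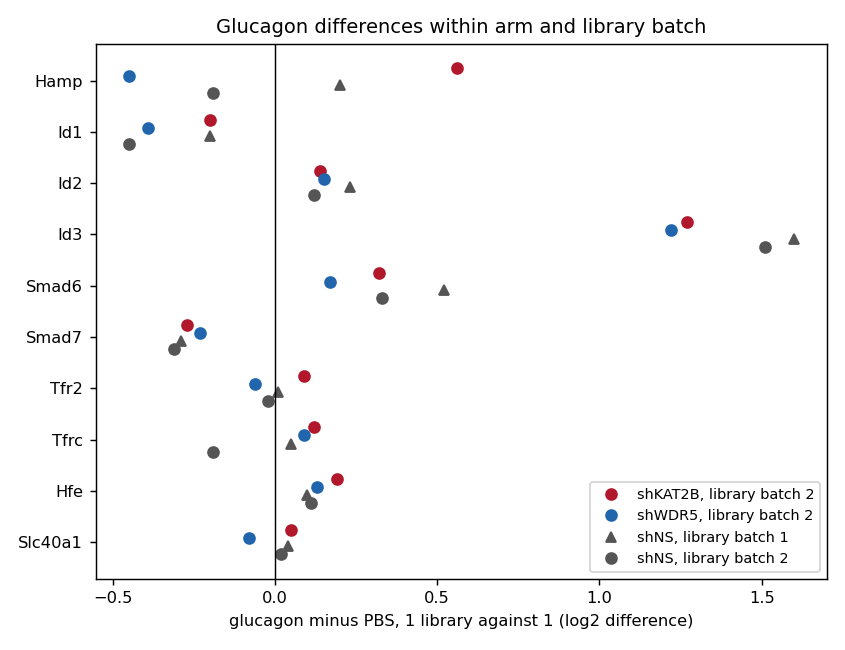
Log2 difference between 1 glucagon and 1 PBS library of the same arm and library batch, for the 10 genes. Id3 lies between 1.22 and 1.60 in the 4 pairs, Smad7 between -0.31 and -0.23, and Hamp on both sides of 0.

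Whether a knockdown changed the glucagon response was tested as an interaction. For shKAT2B and for shWDR5 0 of 10 genes passed, as did 0 of 11480 genes over the array (0 percent for each, with 36 and 20 genes at an unadjusted p under 0.05, limma). The Id3 response differed from that in shNS by -0.41 ± 0.19 in shKAT2B (interval -0.86 to 0.03) and by -0.27 ± 0.19 in shWDR5 (interval -0.72 to 0.17), intervals that hold 0 as well as a smaller response in the knockdown arm. With the replicate block Smad7 passed for shKAT2B (0.51 ± 0.13, adjusted p = 0.0288), as did 1384 genes or 12.1 percent of those tested. The pairing by letter there sets shKAT2B PBS A, a batch 2 library, beside batch 1 libraries, and within batch 2 the Smad7 response was -0.27 in shKAT2B and -0.31 in shNS.

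The route from BMP to hepcidin and the rest of iron handling were described with 8 lists of 58 genes, of which 57 were on the array and 56 tested. The lists were chosen with earlier results of these data known, so nothing is read from the counts per list. Between shKAT2B and shNS 2 rose and 10 fell, or 21.4 percent, with a median of -0.14, against 15.6 percent and a median of 0.009 over all genes. Between shWDR5 and shNS 3 rose and 4 fell, or 12.5 percent, with a median of -0.06, against 10.9 percent and -0.012. Between shKAT2B and shWDR5 2 were higher and 10 lower, again 21.4 percent, against 22.7 percent over all genes. In that comparison Creb3l3 (1.01 ± 0.17, adjusted p = 0.00319) and Smurf1 were higher in shKAT2B, and Ireb2 (-0.76 ± 0.11, adjusted p = 0.00153), Flvcr1 (-0.56 ± 0.08, adjusted p = 0.00141), Slc25a37, Hmox1, Ppargc1a, Ddit3, Atf4, Acvr2a, Jak1 and Slc39a14 were lower. On leaving out 1 library the call of Smurf1 ended for 9 of the 10 libraries (all but shNS glucagon B), that of Jak1 for 7 (all but shNS PBS A, shNS glucagon B and shWDR5 glucagon A), and those of Acvr2a and Hmox1 for 4 each. For Acvr2a these were shKAT2B glucagon B, shKAT2B PBS A, shWDR5 glucagon B and shWDR5 PBS A, and for Hmox1 shKAT2B PBS A and each shWDR5 library. Atf4 and Slc39a14 did not pass without shWDR5 PBS A, and the other 6 calls held.

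Of the ligands, 0 of 5 tested passed in shKAT2B, and Bmp6, the main iron-responsive ligand, differed from shNS by 0.03 ± 0.20 (adjusted p = 0.944). On batch 2 alone Bmp6 passed as higher (0.31, adjusted p = 0.00541), and with the batch term 1 ligand did, Bmp2 (0.31, adjusted p = 0.0189), named here after its value was seen. Of all genes, 37.2 percent passed on batch 2 alone and 41.5 percent with the batch term. Of 7 genes on the list of receptors, co-receptors and the hemojuvelin protease 2 rose in shKAT2B, where 15.6 percent of all genes passed in either direction. These were the type I receptor gene Acvr1, by 0.36 ± 0.08 (adjusted p = 0.0118), and Neo1, which encodes the hemojuvelin-binding protein neogenin, by 0.48 ± 0.11 (adjusted p = 0.0162). Neo1 also rose in shWDR5, by 0.50 ± 0.11 (adjusted p = 0.0206), with the shNS libraries in common. Hjv (hemojuvelin) had 124 and 224 in shKAT2B glucagon and 219.8 in shKAT2B PBS, against 198 and 405 in shNS glucagon and 194 and 419 in shNS PBS. It was at -0.58 ± 0.34 (adjusted p = 0.315), and it passed with the batch term at -0.75 (adjusted p = 0.000421) and on batch 2 alone at -0.89 (adjusted p = 0.000415). Tmprss6, the protease that cleaves hemojuvelin, was at -0.20 ± 0.08 (adjusted p = 0.147) and passed with the batch term (-0.21, adjusted p = 0.0256).

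Of the 4 transducer SMADs 2 fell in shKAT2B, where 15.6 percent of all genes passed in either direction. Smad5 had 739 and 596 in shKAT2B glucagon and 605 in shKAT2B PBS, against 849 and 826 in shNS glucagon and 843 and 832 in shNS PBS (-0.38 ± 0.09, adjusted p = 0.0181). Smad9 had 172 and 176 in shKAT2B glucagon and 147 in shKAT2B PBS, against 223 and 209 in shNS glucagon and 208 and 218 in shNS PBS (-0.40 ± 0.07, adjusted p = 0.00792). Neither overlapped between the arms. Smad5 was lower in shWDR5 too, at -0.37 ± 0.09 (adjusted p = 0.0285). Smad1 differed by -0.05 ± 0.07 (adjusted p = 0.687) and the shared partner Smad4 by -0.25 ± 0.08 (adjusted p = 0.0601), which passed with the replicate block (adjusted p = 0.0083) and with the batch term (adjusted p = 0.00426).

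Among 6 further BMP targets and inhibitors 1 fell in shKAT2B, where 15.6 percent of all genes passed in either direction. This was Atoh8, a transcription factor that in mouse liver follows BMP signalling and iron. It had 267 and 194 in shKAT2B glucagon and 168 in shKAT2B PBS, against 449 and 326 in shNS glucagon and 237 and 214 in shNS PBS. Within each treatment the arms did not overlap, and the difference was -0.62 ± 0.16 (adjusted p = 0.0329). The call ended without shKAT2B glucagon B, shKAT2B PBS A, shWDR5 PBS A, shNS glucagon A or shNS PBS A, up to an adjusted p of 0.119. Atoh8 and Id1 were thus lower beside Hamp, and Id2 to a smaller extent, with calls that ended on leaving out single libraries. Id3 (-0.31 ± 0.10) passed only with the replicate block or the batch term. Smad6 and Smad7 gave no difference past the threshold. The list of further genes mixes targets with inhibitors and ran from -0.62 to 0.36. Its median of -0.01 is therefore not a reading of the targets alone.

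On the interleukin 6 route 2 of 6 genes fell in shKAT2B, where 15.6 percent of all genes passed in either direction. These were the kinase gene Jak1, by -0.29 ± 0.05 (adjusted p = 0.00709), and Stat3, by -0.35 ± 0.10 (adjusted p = 0.0433). Stat3 was at -0.53 ± 0.10 in shWDR5 (adjusted p = 0.0124). Of 7 other factors of the Hamp promoter 2 fell in shKAT2B, the hepatocyte factors Hnf4a (-0.33 ± 0.06, adjusted p = 0.00841) and Cebpa (-0.35 ± 0.08, adjusted p = 0.0236), in the arm where hepatocyte markers were also lower. Creb3l3, a factor of the endoplasmic reticulum that drives Hamp under stress, had 437 and 714 in shKAT2B glucagon and 605 in shKAT2B PBS, 284 in both shWDR5 glucagon libraries and 286 in shWDR5 PBS, and 443, 530.1, 419 and 498 in shNS libraries. It fell in shWDR5 by -0.72 ± 0.16 (adjusted p = 0.0225) and did not pass in shKAT2B (0.29 ± 0.16, adjusted p = 0.279), except as higher on batch 2 alone (0.35, adjusted p = 0.00597) or without shKAT2B glucagon A (0.48, adjusted p = 0.0193). Ppargc1a, a coactivator of fasting genes, passed for glucagon, at 1.70 ± 0.07 (adjusted p = 1.11e-05). It was the 1 of 56 listed genes that did (1.79 percent), where 0.923 percent of all genes passed. With the batch term 6 of 56 passed (10.7 percent), Bmp4, Atoh8, Socs3, Hnf4a and Ppargc1a as higher and Slc25a37 as lower, where 3.35 percent of all genes did.

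Of 12 genes of iron storage, sensing and handling 3 fell in shKAT2B, where 15.6 percent of all genes passed in either direction. Hmox1, which frees iron from haem, was at -0.66 ± 0.12 (adjusted p = 0.00662), Ireb2, which encodes iron regulatory protein 2, at -0.54 ± 0.10 (adjusted p = 0.00825), and Slc25a37, a mitochondrial iron importer, at -0.36 ± 0.06 (adjusted p = 0.00498). Ireb2 had 1722 and 1243 in shKAT2B glucagon and 1342 in shKAT2B PBS, against 2195 and 1965 in shNS glucagon and 2091 and 1951 in shNS PBS, and in shWDR5 it was between 2320.2 and 2469. The ferritin light chain Ftl1 differed by -0.08 ± 0.04 (adjusted p = 0.28). Of 9 uptake and carrier genes 0 passed in shKAT2B, with transferrin (Trf) at -0.14 ± 0.04 (adjusted p = 0.0516). Trf passed with the batch term at -0.15 (adjusted p = 0.00625), with the replicate block at -0.14 (adjusted p = 0.0287) and on batch 2 alone at -0.13 (adjusted p = 0.0451). In shWDR5 Trf fell by -0.24 ± 0.04 (adjusted p = 0.0106), and the haem exporter gene Flvcr1 rose by 0.35 ± 0.07 (adjusted p = 0.0196).

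**Figure D5:**
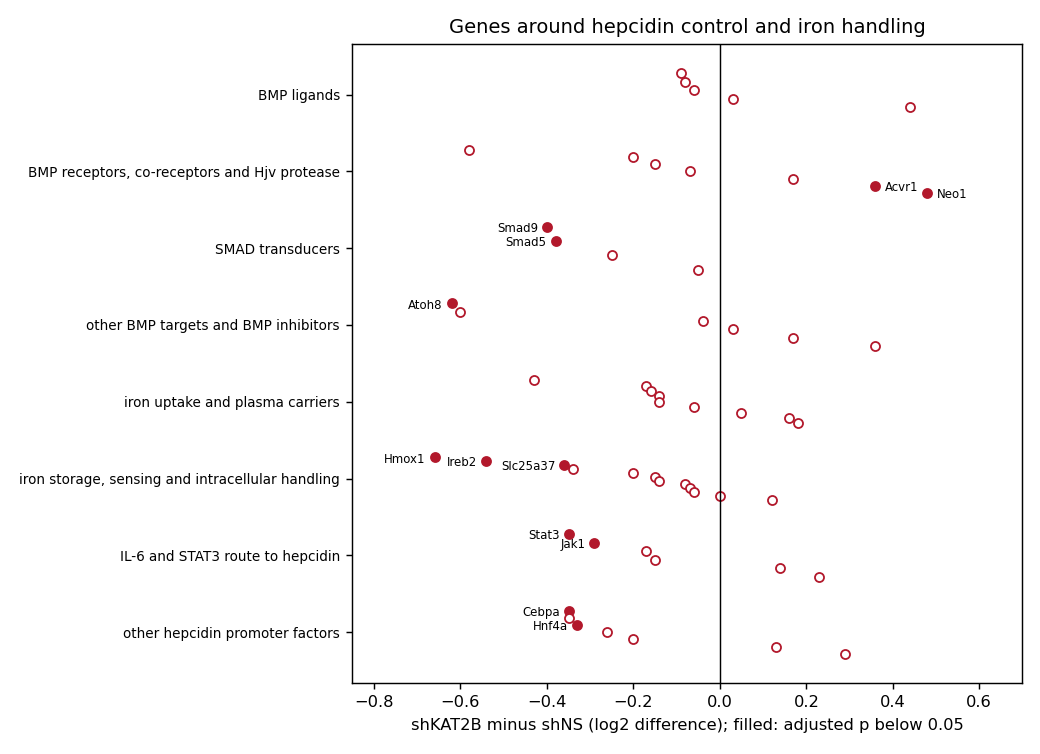
Log2 differences between shKAT2B and shNS of the 56 tested genes on 8 lists, each point a gene, filled and named where the adjusted p is below 0.05. The 12 filled points run from Hmox1 at -0.66 to Neo1 at 0.48.

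Of these 12 calls, those of Hmox1 and Slc25a37 held whichever library was left out. Those of Ireb2, Jak1, Smad9 and Hnf4a ended only without shKAT2B PBS A (adjusted p = 0.0711, 0.0695, 0.0818 and 0.0546). Acvr1 did not pass without shKAT2B PBS A or shKAT2B glucagon B, and Smad5, Neo1 and Cebpa without either of these or shNS glucagon A, up to an adjusted p of 0.153. Stat3 ended without any of these 3, without any shWDR5 library or without shNS PBS A, up to 0.179. In shWDR5 Trf held in every such fit, while the calls of Stat3, Neo1 and Flvcr1 ended without 2, 3 and 2 libraries, and those of Creb3l3, Smad5 and Ppargc1a without 6, 7 and 9. The library shWDR5 PBS A was among them for all 6.

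Across the 10 libraries, the genes whose log2 intensity followed Hamp most closely, among 1686 tested genes with a standard deviation of at least 0.3, were Apoa2 (Pearson r = 0.983), Sh3bgrl2 (0.971), Mt1 (0.971), Opn3 (0.965) and Psip1 (0.958). The libraries share arms, treatments and batches, so these values describe likeness only. Apoa2, which encodes an apolipoprotein of high-density lipoprotein particles, had 505 and 526 in shKAT2B glucagon and 505 in shKAT2B PBS. The shNS libraries had 838 and 1278 with glucagon and 949 and 1176 in PBS. Mt1, the zinc-binding metallothionein, had 4182, 4705 and 4576 in shKAT2B libraries and 6252 to 7383 in shNS libraries. Of the other 9 genes Id1 had the highest r with Hamp, at 0.73, and Slc40a1 the lowest, at -0.79, with Hfe at 0.52, Tfrc at 0.44, Id2 at 0.41, Tfr2 at 0.18, Id3 at 0.03, Smad7 at -0.21 and Smad6 at -0.27.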

How the data were processed

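RNA of 10 libraries was measured on Affymetrix Mouse Gene arrays. The deposited values are linear intensity, 1 for each of 26913 features. The submitters' processing notes name Affymetrix Expression Console 1.1.1, and for the normalization the sources used here give no method. Medians per library ran from 282.1 to 298.2. The precision is limited by how many arrays there are.

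The 17873 features with 1 symbol (1128 carried several symbols and 7912 none) covered 16401 genes, each read from its brightest feature. On the scale log2(intensity + 1), genes in the bottom 30 percent of means were dropped. The tool was limma 3.58.1 under R 4.3.3 (lmFit, eBayes with trend), with an additive model of arm and treatment with 6 residual degrees of freedom, and a model of the 6 groups with 4 for the response within shNS and the interactions. A lone library is taken to have the spread of the replicated groups. Tests were two-sided, with Benjamini-Hochberg adjustment over 11480 genes and a threshold of 0.05. Nothing in the labels says that letters A and B are separate animals, so the spread behind every p-value is that between pooled libraries and may be technical. The fit was tested on simulated data.

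The batches are the signs of the first component of the additive model's residuals. They were read from the same libraries, so fits with a batch term understate the error. Letters were checked as pairs over the 4 groups with both: deviations of the A libraries from their group mean correlated at 0.721 to 0.844 between groups (6 pairs of groups), while the lone PBS libraries, labelled A, lay with the B libraries.

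The 10 genes and all lists were chosen with earlier results of these data known. Named besides them are the targets, up to 4 passing genes per list and direction, 10 genes always named (Bmp6, Hjv, Tmprss6, Smad1, Smad4, Atoh8, Creb3l3, Stat3, Trf and Ftl1) and the 5 genes most like Hamp. Other settings were quantile normalization, median centring, no filter or 50 percent left out, all features of a gene averaged, eBayes without the trend, a pseudocount of 16 or none, the replicate block, the batch term, batch 2 alone, fewer libraries and leaving out each library. They were run for the named pathway genes and targets after seeing the data. Figures used Python 3.11.15 and matplotlib 3.10.9.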

Additional observations from a re-analysis of the deposited data

How the results depend on the processing

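Direction here means that of the value at 2 decimals. The Hamp difference between shKAT2B and shNS and the glucagon response of Id3 kept their direction under every setting run, and Id3 kept its call over the arms. Between shKAT2B and shNS, 3 of the 9 genes other than Hamp passed, and the count was 1 after quantile normalization (17.9 percent of all genes), 5 with the replicate block (29.6), 5 with the batch term (41.5), 1 with only the arms compared (11.6), 0 with glucagon libraries only (0.418) and 0 to 2 on leaving out 1 library (5.21 to 18.5). Between shWDR5 and shNS, 3 of 10 passed, and the count was 5 with the replicate block (26.7), 6 with the batch term (36.8), 5 on the second batch alone (27.9), 1 with only the arms compared (7.08), 0 with glucagon libraries only (0.00871) and 0 to 4 on leaving out 1 library (2.61 to 12.3). Between shKAT2B and shWDR5, 2 passed, and the count was 3 with the batch term (50.4), with Id2 added, 1 after quantile normalization (25.7), 1 with only the arms compared (14.7), 0 with glucagon libraries only (2.61) and 0 to 2 on leaving out 1 library (12.6 to 23.3). For glucagon the count was 1, and 4 with the replicate block (2.5), 5 with the batch term (3.35) and 3 on the second batch alone (2.69). Within shNS it was 1, and 0 to 1 on leaving out 1 library (0.0784 to 0.192). For the interaction with shKAT2B it was 0, and 1 with the replicate block (12.1). Values in parentheses are the percent of all genes tested that passed under the same setting. The counts for shWDR5 against shNS include Hamp with the batch term and on the second batch alone, with the limit given above. Fewer libraries also mean fewer degrees of freedom, and other causes of these changes were not tested.

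Differences that changed sign were all of genes that did not pass in the fit without block or batch term. Bmp6 in shKAT2B, which is among them, passed as higher on batch 2 alone, as given above. Smad7 in shWDR5 was 0.09 with the batch term, 0.15 on the second batch alone, 0.09 with glucagon libraries only and -0.16 to 0.10 without 1 library. Between shKAT2B and shWDR5 Smad6 was -0.04 and Smad7 -0.03 on the second batch alone, and they ran from -0.04 to 0.12 and from -0.14 to 0.12 without 1 library. In shKAT2B against shNS, Smad6 ran from -0.03 to 0.13, Tfrc from -0.20 to 0.03 and Bmp6 from -0.12 to 0.15 without 1 library, and Bmp6 was -0.05 with the replicate block. For glucagon, with the batch term Hamp was 0.19, Tfr2 -0.01, Tfrc 0.02 and Slc40a1 -0.02. Tfrc was 0.01 on the second batch alone, and Slc40a1 -0.02 in median-centred libraries. Without 1 library Hamp ran from -0.28 to 0.23, Tfr2 from -0.01 to 0.07 and Slc40a1 from -0.03 to 0.05. Over all named genes and settings, 1591 values kept direction and side of the threshold, 193 lost their call, 41 gained one and 32 changed sign.

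With the lowest 50 percent of genes left out Smad6 was not tested. The deposited intensities carry no depth, and the 2 lone PBS libraries leave the knockdown arms unreplicated in PBS.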

Other observations

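For glucagon against PBS, Atoh8 had 267 and 194 in shKAT2B glucagon against 168 in shKAT2B PBS, 367 and 274 in shWDR5 glucagon against 211 in shWDR5 PBS, and 449 and 326 in shNS glucagon against 237 and 214 in shNS PBS. Glucagon libraries were above the PBS libraries of their arm in each arm. The difference over the arms was 0.62 ± 0.14 (limma, adjusted p = 0.113), and with the batch term it passed at 0.53 ± 0.09 (adjusted p = 0.00267). In the fit without the batch, the BMP targets Id3 (1.36 ± 0.09), Smad6 (0.37 ± 0.09) and Id2 (0.18 ± 0.05) had the same sign as Atoh8. Id1 (-0.37 ± 0.10) and Smad7 (-0.15 ± 0.16) had the opposite sign. Among these targets only Id3 passed in that fit.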
